A study of Homo sapiens with 24 samples.

Results

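LOX and LOXL2, which crosslink collagen, P4HA2, which hydroxylates it, the hypoxia marker ANKRD37 and the growth factor gene VEGFA are all genes that low oxygen is known to induce, and they were followed here in HGC27 cells. These 5 genes were chosen by name, with earlier results of these data known. They were read from 5 of the 61578 rows of the deposited count tables: SRFBP1, LOXL2-AS1, P4HA2-AS1, UFSP2 and ENSG00000272114. Each of these rows lies across the exons of 1 of the 5 genes on the opposite DNA strand. HGC27 is a human gastric carcinoma line, labelled as epithelial and from stomach, and all cells grew for 3 days in high glucose DMEM. There were 4 lines: Parental cells, a control line labelled SGCTRL and wild type, and the lines SG12 and SG21, both labelled as knockouts of TMEM97, a sterol-binding membrane protein. Each line was grown with fetal bovine serum (FBS) or with LPDS, commonly lipoprotein-deficient serum, which brings cells little cholesterol. That gives 8 groups of 3 biological samples and 24 RNA-seq libraries. Whether each line is 1 clone, where the guides cut, and the oxygen level of the cultures are not given in the sources used here.

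As background, cells sense oxygen through prolyl hydroxylases that mark the HIF alpha subunits for destruction. When oxygen is low, HIF alpha persists, pairs with ARNT and binds a short DNA core, A or G followed by CGTG, near its target genes. The HIF targets include genes of matrix assembly: P4HA2 is a catalytic subunit of the enzyme that hydroxylates prolines in new collagen chains, and LOX and LOXL2 oxidise lysines so that collagen fibres are joined outside the cell. ANKRD37 encodes a small ankyrin-repeat protein widely used as a hypoxia marker, and VEGFA encodes the main secreted signal for blood vessel growth.

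The rows share different amounts of sequence with the genes read from them, in coordinates of hg38 and GENCODE 29. The SRFBP1 row (chromosome 5, plus strand, 121961961 to 122075570) meets LOX (minus strand, 122063195 to 122078360) in 138 bases of coding sequence, which are the whole of exon 3 of the 7 exons of 1 LOX transcript. Of its 3111 exon bases, a further 118 lie across LOX introns and 2855 lie outside LOX. The LOXL2-AS1 row (chromosome 8, plus strand) meets 178 coding bases of LOXL2, and its other 4620 exon bases all lie across LOXL2 introns, so unspliced LOXL2 RNA is counted there too. The P4HA2-AS1 row (chromosome 5, plus strand) has 548 of its 839 exon bases across the 3′ UTR of P4HA2. The UFSP2 row (chromosome 4, minus strand, 185399540 to 185425985) meets ANKRD37 (plus strand, 185396021 to 185400628) in 909 bases, or 35.2% of the ANKRD37 exon bases, 202 of them coding. Of the 2781 exon bases of the UFSP2 row, 1842 lie outside ANKRD37 and 30 lie across its introns. The ENSG00000272114 row (chromosome 6, minus strand, 43770429 to 43770616) is 188 bases long and lies wholly across the 5′ UTR of VEGFA.

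**Figure D1:**
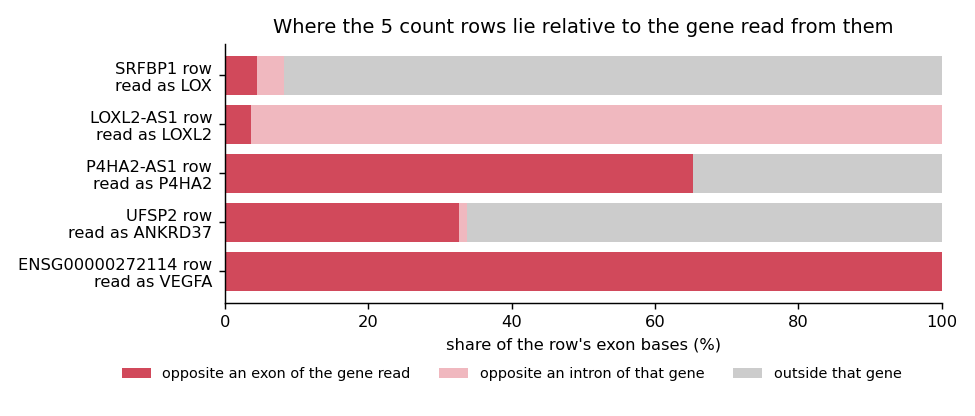
Share of the exon bases of each count row (%) that lie opposite an exon of the gene read from it (red), opposite an intron of that gene (pink) or outside that gene (grey). The VEGFA row lies wholly opposite an exon, while 138 of the 3111 exon bases of the row read as LOX do.

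Every LOX value below is the count of the whole SRFBP1 row, and the part that comes from bases outside LOX exons was not measured. The same holds for the LOXL2, P4HA2 and ANKRD37 values and the rows they are read from. The stretch of the SRFBP1 row across a LOX exon is shown. It is chr5:122075404-122075541, minus strand, GRCh38, copied from the GENCODE 29 transcript in the direction of LOX, and no letter is in capitals.
LOX exon window: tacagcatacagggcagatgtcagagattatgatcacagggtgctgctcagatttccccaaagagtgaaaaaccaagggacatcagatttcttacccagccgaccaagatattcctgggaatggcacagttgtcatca

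Promoters were searched for LOX, P4HA2 and ANKRD37 only, since no promoter sequence was at hand for LOXL2 and VEGFA. Those of LOX and ANKRD37 carry the letters ACGTG, 1 form of the HIF core. They are shown with each match on either strand in capitals (CACGT is the same motif on the other strand). RefSeq start sites on GRCh38.p14 were used, with windows of 300 bases. The LOX stretch is chr5:122078361-122078509, minus strand, which ends just upstream of the GENCODE gene, and its matches begin 185 and 116 bases before the start site.
LOX upstream: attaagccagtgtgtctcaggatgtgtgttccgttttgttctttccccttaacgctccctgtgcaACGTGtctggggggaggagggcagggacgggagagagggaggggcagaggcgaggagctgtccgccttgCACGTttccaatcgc
The ANKRD37 stretch is chr4:185396676-185396702, plus strand. Its first capital run is a palindrome that holds the motif on both strands, 162 and 161 bases before the start site, and the last match begins 143 bases before it.
ANKRD37 promoter segment: ctcCACGTGccagtgtttgtgtACGTG
LOX has 3 start sites in the promoter table, and the window shown, the most upstream, held the most matches: 4 to ACGTG, with the others 98 and 42 bases before the start site, and 0 to GCGTG. The windows of the other 2 LOX start sites, which overlap each other, each held 1 ACGTG and 1 GCGTG. The ANKRD37 window held 3 matches to ACGTG and 0 to GCGTG. The P4HA2 window held no match to ACGTG or to GCGTG, which says only that these letters are not in that window. Of 35116 RefSeq promoter windows of the same length, 21.4% held at least 1 ACGTG on either strand, 8.82% at least 2 and 0.843% at least 4, counting overlapping matches. GCGTG was in 36.5% of them.

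The 24 libraries held 2399210 to 5543680 counts on genes, which were 5.28% to 5.54% of the uniquely aligned reads, and levels are given as CPM, each row's counts scaled to the library's counts on genes without a further factor, while fold changes come from the fit with TMM scaling. In 3 groups 1 library stood apart over all genes: Parental FBS replicate 2, SG12 FBS replicate 3 and SG21 LPDS replicate 1. The chi-square per row between replicates was 8.78 to 15.1 in the 6 pairs that hold 1 of them and 2.75 to 5.94 in the other 18 pairs. The share of ambiguous counts also split the libraries: it was under 2.4% in all 6 SGCTRL libraries and in SG21 LPDS replicates 2 and 3, and above it in the other 16. Comparisons of SGCTRL with other lines therefore mostly run across this split. Of the LPDS responses within a line, only that of SG21 crosses it, with its FBS libraries and LPDS replicate 1 above 2.4%. What the split stands for was not tested. The leaked share means the share of counts on protein-coding rows with no exon of another gene on the opposite strand. It was 5.16% to 6.23% in the Parental FBS libraries and 4.26% to 5.27% in the others, and served as a covariate in an alternative fit. The TMEM97 reading (the IFT20 row) in FBS was at 129 ± 10.8 CPM for SGCTRL, 51.6 ± 4.44 for SG12 and 75.4 ± 1.85 for SG21, and 160 ± 6.13, 190 ± 16.2 and 126 ± 9.45 in LPDS (SD, n = 3). TMEM97 RNA was thus not lower in SG12 than in SGCTRL in LPDS, and with the cut sites not known the RNA level does not check the knockout labels. HMGCS1, the cholesterol synthesis gene that answers to sterol loss, rose in LPDS in all 4 lines, by log2 0.97 to 2.47. The epithelial label could be checked only in part, since a row of a gene's own name mostly misses its RNA here. Of 10 epithelial markers 4 have an opposite row, with averages of 0.233 to 1.93 CPM (CDH1 at 1.09). Among these rows 2 are KRT8 and KRT18, which are read from each other, and EPCAM has no such row. In own-name rows CLDN4 averaged 39.4 CPM and ELF3 9.27 CPM, and the other 8 of the 10 were under 1 CPM. The sum over the 10 own-name rows ran from 14.2 to 75.4 CPM over the libraries.

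The LPDS response of the 5 genes was mainly downward. The genes were chosen with earlier results of these data known, so the counts called below describe them and are no independent test. Each of the 20 responses (5 genes in 4 lines) was tested with edgeR's quasi-likelihood test over 12822 rows, and a call is a Benjamini-Hochberg adjusted p under 0.05. Of the 20, 15 were lower, 1 was higher and 4 were not called. In Parental cells 3 of the 5 genes were called, where 4.55% of all tested rows were called: 2 genes were lower against 2.35% of rows lower, and 1 was higher against 2.2% higher. For SGCTRL 4 genes were lower, where 2.33% of rows were called and 1.01% were lower. For SG12 all 5 genes were lower, where 22.5% of rows were called and 11% were lower. For SG21 4 were lower, where 3.83% of rows were called and 1.96% were lower. The median log2 change of the 5 was -0.35, -0.63, -0.62 and -0.71 in Parental, SGCTRL, SG12 and SG21, while the median over all tested rows lay between -0.01 and 0.02.

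**Figure D2:**
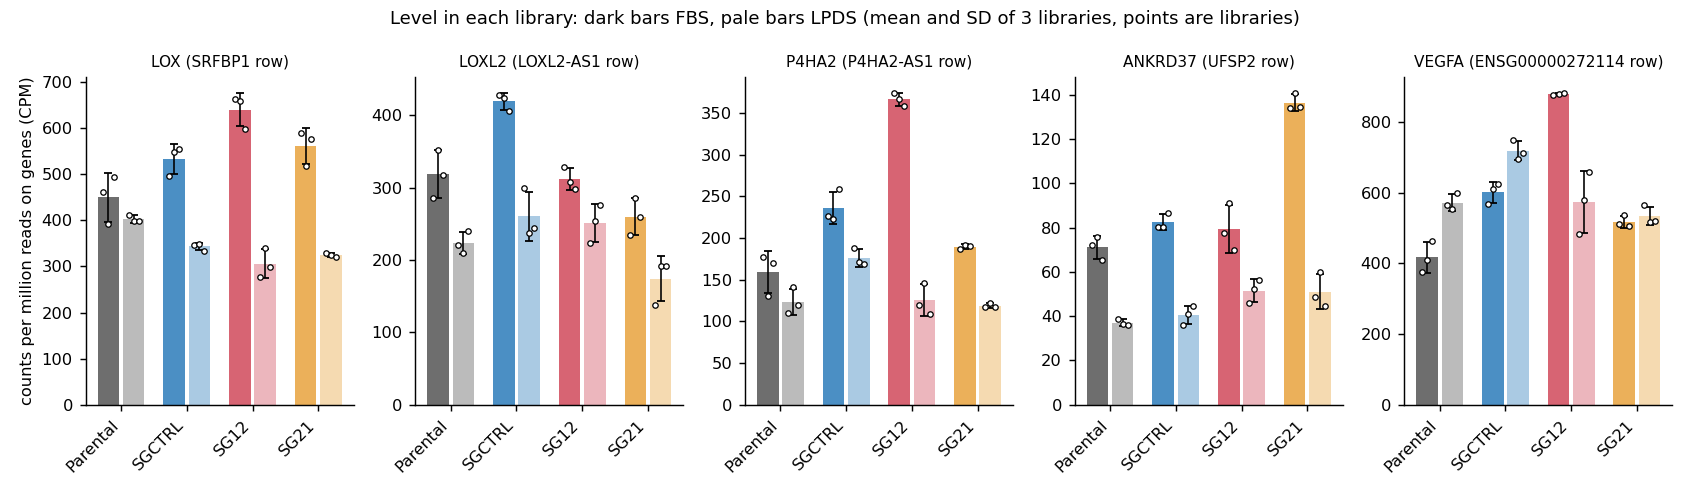
Level of each gene in CPM (vertical axis, starting at 0) in the 4 lines, with dark bars for FBS and pale bars for LPDS, bars for the mean of 3 libraries, error bars for the SD and points for the libraries. ANKRD37 is lower in all 12 LPDS libraries than in all 12 FBS libraries, and VEGFA in SG12 is at 880 ± 2.74 CPM in FBS and 574 ± 88.0 in LPDS.

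LOX, the lysyl oxidase that crosslinks collagen and elastin, fell in LPDS in SGCTRL, SG12 and SG21. In Parental cells its level was 462, 392 and 495 CPM in the 3 FBS libraries and 413, 398 and 398 CPM in LPDS. These groups overlap, and the change of log2 -0.15 ± 0.10 (SE) was not called (edgeR adjusted p = 0.426). In SGCTRL it went from 496, 549 and 555 CPM in FBS to 346, 350 and 334 CPM in LPDS, a log2 change of -0.63 ± 0.10 (adjusted p = 3.14e-05). In SG12 it went from 665, 659 and 599 CPM to 278, 341 and 300 CPM, a log2 change of -1.07 ± 0.10 (adjusted p = 4.94e-12). In SG21 it went from 591, 518 and 577 CPM to 328, 326 and 320 CPM, a log2 change of -0.82 ± 0.10 (adjusted p = 4.67e-08). In each of these 3 lines every LPDS library was below every FBS library. Across all lines, 11 of the 12 FBS libraries were above every LPDS library, the exception being Parental FBS replicate 2. From high to low the group means ran SG12, SG21, SGCTRL and Parental in FBS and then Parental, SGCTRL, SG21 and SG12 in LPDS, so the order of the lines in LPDS was the reverse of that in FBS. Neighbours whose libraries overlapped were SG21 and SGCTRL in FBS, Parental FBS and Parental LPDS, and SG21 and SG12 in LPDS.

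LOXL2, a lysyl oxidase-like enzyme of basement membrane and fibrillar collagen, was lower in LPDS in all 4 lines. In Parental cells its level was 286, 353 and 318 CPM in FBS and 220, 210 and 240 CPM in LPDS (log2 -0.50 ± 0.11, adjusted p = 0.00422 by edgeR). In SGCTRL it was 428, 424 and 406 CPM in FBS and 299, 237 and 245 CPM in LPDS (log2 -0.68 ± 0.11, adjusted p = 6.83e-05). In SG21 it was 235, 286 and 260 CPM in FBS and 138, 192 and 192 CPM in LPDS (log2 -0.61 ± 0.11, adjusted p = 0.000372). The groups of these 3 lines did not overlap between the media, and the lowest LPDS value, 138 CPM, is in SG21 LPDS replicate 1, 1 of the libraries that stand apart. Without it the SG21 change was log2 -0.47 and was still called. That replicate is also the only SG21 LPDS library on the same side of the ambiguous-count split as SG21 FBS. Under the alternatives other than leaving out 1 library, the SG21 change ran from log2 -0.92 to -0.57. In SG12 the level was 329, 308 and 298 CPM in FBS and 224, 254 and 276 CPM in LPDS, and the change of log2 -0.31 ± 0.11 had an adjusted p of 0.0378. That SG12 call was lost without SG12 FBS replicate 1 (log2 -0.34) or without SG12 LPDS replicate 1 (log2 -0.30). By line, LOXL2 stood highest in SGCTRL FBS at 420 ± 11.7 CPM and lowest in SG21 LPDS at 174 ± 31.0 CPM, and both groups were apart from their neighbours. Each of the 6 groups between them, from 319 ± 33.5 down to 224 ± 15.2 CPM, overlapped the next.

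P4HA2, the collagen prolyl hydroxylase subunit, had the largest LPDS response of the 5 genes, in SG12. Its level there was 374, 367 and 359 CPM in FBS and 120, 147 and 109 CPM in LPDS, a log2 change of -1.55 ± 0.12 (edgeR adjusted p = 1.27e-14). In SG21 it went from 187, 192 and 191 CPM to 117, 122 and 117 CPM, log2 -0.71 ± 0.12 (adjusted p = 0.000125). The FBS and LPDS libraries were far apart in both knockout lines, and SG12 FBS stood above every other group. In SGCTRL the level was 227, 223 and 259 CPM in FBS and 189, 172 and 169 CPM in LPDS, and the change of log2 -0.41 ± 0.12 was near the threshold (adjusted p = 0.0437). That SGCTRL call was lost without any 1 of 5 of its 6 libraries, all but LPDS replicate 1, with changes between log2 -0.34 and -0.46. In Parental cells the level was 177, 130 and 170 CPM in FBS and 110, 141 and 119 CPM in LPDS, overlapping groups whose change of log2 -0.35 ± 0.12 was not called (adjusted p = 0.0779). Without Parental FBS replicate 2, a library that stands apart, the Parental change was log2 -0.49, and without Parental LPDS replicate 2 it was log2 -0.46, and both then passed. In LPDS the SG12, Parental and SG21 means lay together at 125 ± 19.2, 123 ± 15.9 and 119 ± 2.76 CPM, with overlapping libraries.

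ANKRD37, the ankyrin-repeat hypoxia marker, fell in LPDS in every line. Its level in SG21 was 134, 141 and 135 CPM in FBS and 48.9, 59.9 and 44.6 CPM in LPDS, a log2 change of -1.44 ± 0.14 (edgeR adjusted p = 2.49e-10). In SGCTRL it was 80.1, 80.5 and 86.6 CPM in FBS and 36.2, 41.0 and 44.4 CPM in LPDS, log2 -1.01 ± 0.15 (adjusted p = 4.72e-06). In Parental cells it was 72.3, 75.6 and 65.4 CPM in FBS and 38.8, 36.3 and 36.2 CPM in LPDS, log2 -0.94 ± 0.15 (adjusted p = 3.76e-05). In SG12 it was 77.4, 91.0 and 69.9 CPM in FBS and 45.8, 52.4 and 56.5 CPM in LPDS, log2 -0.62 ± 0.15 (adjusted p = 0.00113). All 12 LPDS libraries, from 36.2 to 59.9 CPM, were below all 12 FBS libraries, from 65.4 to 141 CPM, which held for no other of the 5 genes. SG21 FBS was apart from the other FBS groups. SG12 FBS overlapped both SGCTRL FBS and Parental FBS, and these last groups did not overlap each other. In LPDS the SG12 and SG21 libraries overlapped and lay above those of Parental and SGCTRL. With 97 to 558 counts a library this gene had the fewest reads of the 5.

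VEGFA, the vascular growth factor, took different directions in different lines. In Parental cells it rose from 377, 410 and 464 CPM in FBS to 565, 554 and 598 CPM in LPDS, a log2 change of 0.47 ± 0.10 (edgeR adjusted p = 0.00154). In SG12 it fell from 877, 881 and 883 CPM to 484, 579 and 660 CPM, a log2 change of -0.62 ± 0.10 (adjusted p = 1.99e-06). Neither pair of groups overlapped. In SGCTRL the level was 568, 610 and 624 CPM in FBS and 749, 696 and 713 CPM in LPDS, apart and higher in LPDS, but the change of log2 0.27 ± 0.09 was not called (adjusted p = 0.128). In SG21 it was 510, 538 and 506 CPM in FBS and 565, 518 and 520 CPM in LPDS, and the change of log2 0.01 ± 0.10 was not called (adjusted p = 0.963). The LPDS libraries of SG12 were the most spread of any VEGFA group, and the 3 SG12 FBS libraries the closest together. VEGFA was the only 1 of the 5 genes with a called rise in any line.

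**Figure D3:**
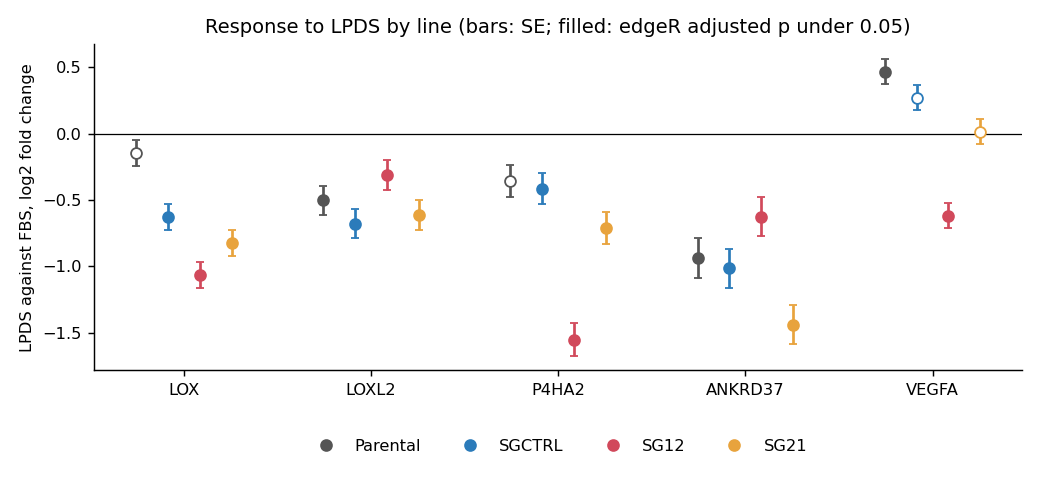
Log2 fold change of LPDS against FBS (vertical axis) for the 5 genes in the 4 lines, with SE bars and filled points where edgeR's adjusted p was under 0.05. LOX in SG12 lies at -1.07 and P4HA2 in SG12 at -1.55, while VEGFA runs from 0.47 in Parental cells to -0.62 in SG12.

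Whether the LPDS response itself differed between lines was tested as an interaction in the same fit, for 6 pairs of lines that share groups with each other. The SG12 response was lower than that of SGCTRL for LOX (difference of log2 -0.44 ± 0.14, edgeR adjusted p = 0.0314), P4HA2 (-1.14 ± 0.17, adjusted p = 2.59e-06) and VEGFA (-0.89 ± 0.13, adjusted p = 3.71e-06). That is 3 of 5 genes where 10.7% of tested rows were called. LOX and P4HA2 fell in both lines, while VEGFA fell in SG12 and was at log2 0.27, not called, in SGCTRL. Against Parental cells the SG12 response was lower for LOX (-0.92 ± 0.14, adjusted p = 3.94e-06), P4HA2 (-1.20 ± 0.17, adjusted p = 1.19e-06) and VEGFA (-1.09 ± 0.13, adjusted p = 4.56e-08), where 8.6% of rows were called. Against SG21 it was lower for P4HA2 (-0.84 ± 0.17, adjusted p = 0.000405) and VEGFA (-0.63 ± 0.13, adjusted p = 0.000755) and less negative for ANKRD37 (0.81 ± 0.20, adjusted p = 0.00447), where 13.1% of rows were called. The knockout lines thus differed from each other for 3 of the 5 genes. SG21 differed from SGCTRL for 0 of the 5 genes, where 0.0468% of rows were called, with differences from -0.42 for ANKRD37 to 0.06 for LOXL2. At an unadjusted p under 0.05, 1 of the 5 passed there, and DESeq2 called 0. SG21 differed from Parental cells for LOX (-0.68 ± 0.14, adjusted p = 0.00913), where 0.686% of rows were called. With SG21 LPDS replicate 1 as the only SG21 LPDS library, on the Parental side of the ambiguous-count split, that difference was log2 -0.63 and was not called. SGCTRL and Parental cells differed for 0 of the 5 in edgeR and in DESeq2, with 1 at an unadjusted p under 0.05, where 0.0702% of rows were called. The LOXL2 response differed between none of the 6 pairs of lines in this fit. For SG12 against SG21 it was log2 0.30 there but 0.60 and called with a term for the ambiguous-count split (adjusted p = 0.0352) or with SG21 LPDS replicate 1 alone (adjusted p = 0.0399). With the leaked share as a covariate the differences of SG12 from Parental cells were smaller but still called for LOX (-0.55) and P4HA2 (-0.78), and those for LOX of SG12 from SGCTRL (-0.29) and of SG21 from Parental cells (-0.46) were not called.

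In FBS the lines already differed. SG12 was higher than SGCTRL for LOX (log2 0.28 ± 0.10, edgeR adjusted p = 0.0256), P4HA2 (0.65 ± 0.12, adjusted p = 2.14e-05) and VEGFA (0.57 ± 0.09, adjusted p = 4.94e-06) and lower for LOXL2 (-0.41 ± 0.11, adjusted p = 0.00453), where 25.2% of rows were called. SG21 was lower than SGCTRL for LOXL2 (-0.69 ± 0.11, adjusted p = 7.28e-06) and higher for ANKRD37 (0.72 ± 0.14, adjusted p = 0.000145), where 14% of rows were called. None of these 6 differences was called in a fit with a term for the ambiguous-count split, in which LOXL2 in SG12 turned to log2 0.02, LOXL2 in SG21 was log2 -0.27 and the others were 0.21 for LOX, 0.64 for P4HA2, 0.40 for VEGFA and 0.78 for ANKRD37. In FBS all SGCTRL libraries lie on 1 side of the split and all others on the other side, so line and split cannot be told apart there. The term rests on SG21 LPDS, the only group with libraries on both sides. The LOXL2 call of SG12 against SGCTRL was also lost without SG12 FBS replicate 2 or 3 or any 1 SGCTRL FBS library, at log2 -0.29 to -0.35.

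Parental cells lie on the same side of that split as SG12, so their comparison does not cross it. In FBS, SG12 was higher than Parental cells for LOX (log2 0.55 ± 0.10, edgeR adjusted p = 1.71e-05), P4HA2 (1.25 ± 0.12, adjusted p = 7.12e-12) and VEGFA (1.12 ± 0.10, adjusted p = 2.07e-13), where 26.5% of rows were called. SG21 was higher than Parental cells for LOX (0.34 ± 0.10, adjusted p = 0.00827), VEGFA (0.33 ± 0.10, adjusted p = 0.0081) and ANKRD37 (0.95 ± 0.14, adjusted p = 1.15e-06), where 24.2% of rows were called. With the leaked share as a covariate LOX was not called in SG12 (0.26, adjusted p = 0.181) or in SG21 (0.036, adjusted p = 0.917), nor was VEGFA in SG21 (0.31, adjusted p = 0.182). The LOX and VEGFA calls in SG21 were lost too with the spread of the compared groups alone (0.29 and 0.28). The LOX call in SG21 was lost without Parental FBS replicate 2 (log2 0.24) or SG21 FBS replicate 1 (0.26) or 3 (0.27), and the VEGFA call without Parental FBS replicate 1 (0.23) or SG21 FBS replicate 3 (0.30). Between the knockout lines in FBS, SG12 was above SG21 for P4HA2 (0.97 ± 0.12, adjusted p = 3.87e-09) and VEGFA (0.79 ± 0.10, adjusted p = 3.13e-09) and below it for ANKRD37 (-0.75 ± 0.14, adjusted p = 3.01e-05), where 27.4% of rows were called. The LOXL2 difference there, 0.29 ± 0.11 (adjusted p = 0.0484), was lost without SG12 FBS replicate 1 (0.33) or SG21 FBS replicate 1 (0.30), and under 4 other alternatives (0.28 to 0.29). SG12 FBS thus held the highest mean of all 8 groups for LOX, P4HA2 and VEGFA, and SG21 FBS for ANKRD37.

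SGCTRL differed from Parental cells in FBS for LOXL2 (log2 0.42 ± 0.11, edgeR adjusted p = 0.00593), P4HA2 (0.60 ± 0.12, adjusted p = 0.000359), VEGFA (0.55 ± 0.10, adjusted p = 5.28e-05) and LOX (0.27 ± 0.10, adjusted p = 0.0472), all higher in SGCTRL, where 18.3% of rows were called. Both are wild type by their labels, and the comparison crosses the ambiguous-count split. With a term for the split only VEGFA was called, with LOXL2 at -0.0041 (adjusted p = 0.996), P4HA2 at 0.61 (0.143) and LOX at 0.35 (0.311). With the leaked share as a covariate again only VEGFA was called, with LOXL2 at 0.57 (adjusted p = 0.0662), P4HA2 at 0.21 (0.611) and LOX at -0.059 (0.903). DESeq2 did not call LOX either (0.23, adjusted p = 0.0874). The LOX call was lost without Parental FBS replicate 1 (0.26) or 2 (0.17) or without any 1 SGCTRL FBS library (0.19 to 0.28). The LOXL2 call was lost without Parental FBS replicate 1 (0.32) or SGCTRL FBS replicate 1 (0.37).

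In LPDS, SG21 was lower than SGCTRL for LOXL2 (log2 -0.63 ± 0.11, edgeR adjusted p = 6.53e-05), P4HA2 (-0.62 ± 0.12, adjusted p = 0.000247) and VEGFA (-0.47 ± 0.10, adjusted p = 0.000306), where 10.9% of rows were called. With only the SG21 LPDS libraries on the SGCTRL side of the split (replicates 2 and 3) these were -0.49, -0.61 and -0.52, all still called. With replicate 1 alone VEGFA was -0.35 and was not called (adjusted p = 0.0976). SG12 was lower than SGCTRL for P4HA2 (-0.48 ± 0.12, adjusted p = 0.00455) and VEGFA (-0.31 ± 0.09, adjusted p = 0.0215), where 11.1% of rows were called. This comparison crosses the split, and neither was called with a term for it (P4HA2 -0.50, adjusted p = 0.319, and VEGFA -0.49, adjusted p = 0.124) or with the leaked share (-0.26, adjusted p = 0.212, and -0.30, adjusted p = 0.0723). The P4HA2 call was lost without SG12 LPDS replicate 3 (-0.39) or SGCTRL LPDS replicate 1 (-0.41), and the VEGFA call without SG12 LPDS replicate 1 (-0.19) or 2 (-0.30) or SGCTRL LPDS replicate 1 (-0.25) or 2 (-0.32). Against Parental cells in LPDS, LOX was lower in SG12 (-0.36 ± 0.10, adjusted p = 0.0124) and SG21 (-0.34 ± 0.10, adjusted p = 0.0182), where 9.51% and 11.3% of rows were called. The SG12 call was lost without Parental LPDS replicate 1 (-0.32) or SG12 LPDS replicate 1 (-0.33), and the SG21 call without Parental LPDS replicate 1 (-0.31) or SG21 LPDS replicate 3 (-0.32). The SG21 difference was also not called with the split term or with SG21 LPDS replicate 1 alone (both -0.28), nor the SG12 difference with no count filter (-0.33). LOXL2 was lower in SG21 than in Parental cells (-0.39 ± 0.11, adjusted p = 0.0177), a call lost without SG21 LPDS replicate 1 (-0.29), the only SG21 LPDS library on the Parental side of the split. With that library alone or with the split term it was -0.68 and called.

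ANKRD37 was higher than in Parental cells in LPDS in both knockout lines, by log2 0.51 ± 0.15 for SG12 (adjusted p = 0.0237 in edgeR) and by 0.45 ± 0.15 for SG21 (0.0434). The SG12 call was lost without Parental LPDS replicate 2 (0.51) or 3 (0.44) or SG12 LPDS replicate 2 (0.47) or 3 (0.40). The SG21 call was lost without any 1 Parental LPDS library (0.37 to 0.49) or without SG21 LPDS replicate 1 (0.44) or 2 (0.26), and under 6 other alternatives (0.41 to 0.43). P4HA2 was higher in SGCTRL than in Parental cells (0.54 ± 0.12, adjusted p = 0.0135), where 0.811% of rows were called, but not without Parental LPDS replicate 1 (0.47) or 3 (0.45) or SGCTRL LPDS replicate 1 (0.42) or 2 (0.51), nor with the split term (0.55) or the leaked share (0.40). Between the knockout lines in LPDS only LOXL2 differed, higher in SG12 (0.59 ± 0.11, adjusted p = 9.91e-05), where 18.6% of rows were called, and without SG12 LPDS replicate 1 VEGFA passed too (0.29). With SG21 LPDS replicate 1 alone the LOXL2 difference was 0.90, and with the split term 0.88.

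The rows that carry the genes' own names held few counts for 4 of the 5. The opposite row averaged 12.5 times as many CPM as the own-name row for LOX (445 against 35.7 CPM), 27.3 times for LOXL2, 64.2 times for P4HA2 and 45.8 times for VEGFA. Over 13074 protein-coding rows with no exon of another gene on the opposite strand the median was 0.344 CPM and the 90th percentile 6.01 CPM. ANKRD37 is the exception: its own-name row averaged 81.1 CPM, and it lies opposite UFSP2, a protease gene for the small modifier UFM1, so it is read as UFSP2. That row was 81.2 ± 1.52 CPM in SG21 FBS and 82.6 ± 12.5 CPM in SG21 LPDS, where the ANKRD37 reading went from 137 ± 3.90 to 51.1 ± 7.91 CPM. In SG12 the own-name row was lower in LPDS, at 126 ± 15.5 CPM in FBS and 88.0 ± 16.7 CPM in LPDS. The ANKRD37 reading there went from 79.4 ± 10.7 to 51.6 ± 5.41 CPM. The own-name row went from 75.2 ± 5.60 to 64.2 ± 10.2 CPM in Parental cells and from 67.9 ± 1.13 to 64.1 ± 12.7 CPM in SGCTRL. Its changes were not tested.

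Of 46 known hypoxia targets on a list that holds the 5 genes, 10 could be read from an opposite row, so 5 others were measured. MXI1, a MYC antagonist, was lower in LPDS in Parental cells (log2 -0.58 ± 0.17, edgeR adjusted p = 0.0357), SG12 (-0.87 ± 0.17, adjusted p = 8.98e-05) and SG21 (-0.65 ± 0.16, adjusted p = 0.0125), and its change in SGCTRL was -0.56 ± 0.16 (adjusted p = 0.0531). ERO1A, an oxidase of disulfide formation, was lower in SG21 (-0.45 ± 0.12, adjusted p = 0.0247), and so was the glycolytic enzyme ALDOA (-0.31 ± 0.09, adjusted p = 0.0297). ENO1, another glycolytic enzyme, was higher in SG21 (0.55 ± 0.17, adjusted p = 0.0482). PDK1, which restrains pyruvate entry into mitochondria, passed in no line, with changes from -0.63 to -0.31. Outside the 5 genes, the hypoxia list thus had 1 lower in Parental cells, 0 called in SGCTRL (4 at an unadjusted p under 0.05), 1 lower in SG12, and 3 lower with 1 higher in SG21, of 5 each. Over all tested rows 2.35%, 1.01%, 11% and 1.96% were lower in these lines, and 3.83% were called in SG21, so the 1 of 5 in SG12 is near the share over all rows. Their medians were -0.15, -0.31, -0.11 and -0.45 in the same order of lines.

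Genes of oxygen sensing were lower in SG12 LPDS. Of 20 listed genes 5 were measured, and in SG12 4 of the 5 were lower in LPDS against 11% of all tested rows lower, with a median of log2 -0.64. They were SIAH1 (-1.12 ± 0.09, edgeR adjusted p = 8.76e-14) and SIAH2 (-1.07 ± 0.18, adjusted p = 1.13e-05), ubiquitin ligases that act on the oxygen-sensing hydroxylases, EP300 (-0.64 ± 0.18, adjusted p = 0.00839), a HIF coactivator, and OS9 (-0.46 ± 0.10, adjusted p = 0.000351). HIF1A, the HIF alpha subunit gene itself, was at -0.04 ± 0.14 in SG12 and passed in no line. In Parental cells, SGCTRL and SG21 0 of these 5 passed in edgeR, with 1, 1 and 2 at an unadjusted p under 0.05. The response of SG12 differed from that of SGCTRL for 4 of the 5, by the interaction test with a median of -0.77, where 10.7% of all rows were called.

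Among other genes of collagen modification, 6 of the listed 28 were measured beside LOX, LOXL2 and P4HA2, and of these 6, 0 were called in Parental cells, 1 was lower in SGCTRL, 1 was lower and 1 higher in SG12 and 2 were lower in SG21, against 4.55%, 2.33%, 22.5% and 3.83% of all rows called. P4HB, the partner subunit of the prolyl hydroxylases, was lower in SGCTRL (log2 -0.38 ± 0.10, edgeR adjusted p = 0.0316) and at 0.02 ± 0.10 in SG12, where P4HA2 fell most. PPIB, a collagen prolyl isomerase, was higher in SG12 (0.32 ± 0.10, adjusted p = 0.0164) and lower in SG21 (-0.42 ± 0.10, adjusted p = 0.00936). LOXL3, of the LOX family, was lower in SG12 (-1.03 ± 0.37, adjusted p = 0.0361), and MIA3, a collagen export receptor, was lower in SG21 (-0.53 ± 0.11, adjusted p = 0.0023). LOXL1 and CRTAP passed in no line. COL18A1, the only 1 of 24 listed collagens that was measured, was higher in SG12 (0.35 ± 0.11, adjusted p = 0.0195).

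Of the VEGF pathway, the co-receptors NRP1 and NRP2 were measured beside VEGFA. Both fell with VEGFA in SG12, where 11% of all rows were lower, NRP1 with a log2 change of -1.10 ± 0.13 (edgeR adjusted p = 7.43e-09) and NRP2 with -1.33 ± 0.21 (adjusted p = 2.64e-06). Neither passed in another line, where NRP1 ran from -0.37 to 0.13 and NRP2 from -0.66 to -0.15. At an unadjusted p under 0.05 in edgeR, 2 of the 2 passed in SG21 and 0 in Parental cells and in SGCTRL. By the interaction test the SG12 response was lower than that of SGCTRL and of Parental cells for 2 of the 2. It was lower than that of SG21 for 1 of the 2, where 13.1% of all rows were called.

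**Figure D4:**
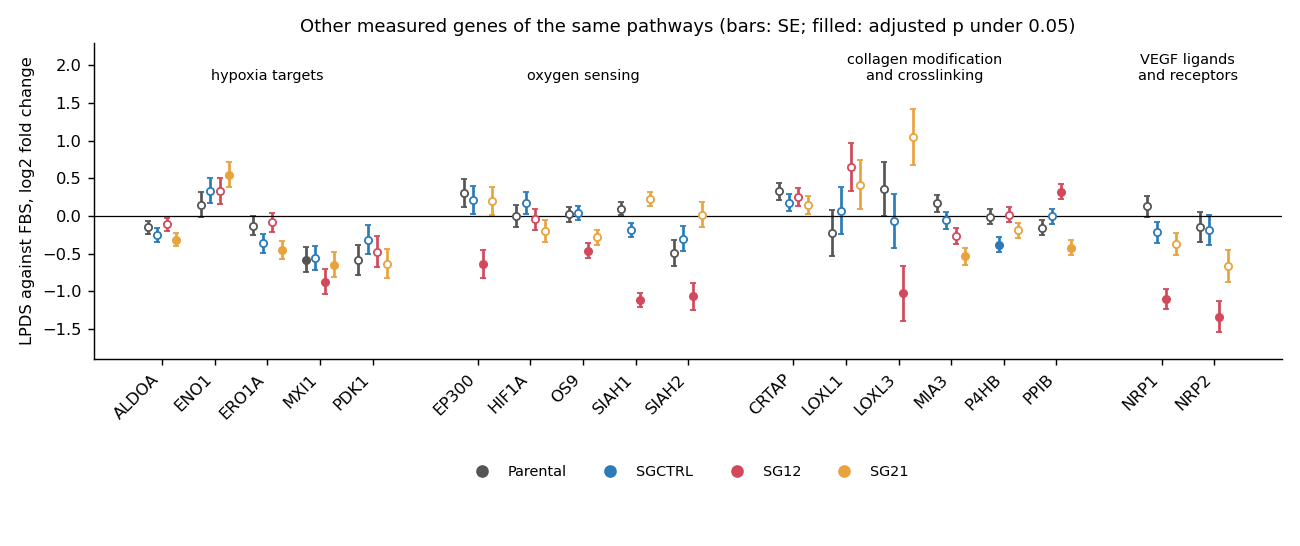
Log2 fold change of LPDS against FBS (vertical axis) for 18 other genes of the hypoxia, oxygen-sensing, collagen-modification and VEGF lists in the 4 lines, with SE bars and filled points where edgeR's adjusted p was under 0.05. SIAH1, SIAH2, NRP1 and NRP2 lie between -1.33 and -1.07 in SG12, and none of them has a filled point in another line.

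The rows most like each gene over the 8 groups were found from the root mean square (RMS) difference of centred log2 group means, a description over 8 points that share libraries. For ANKRD37 the nearest was MXI1 (RMS 0.28, where the median row was at 0.63), itself on the hypoxia list. For LOX they were UNC5C (0.16) and GRK6 (0.16), with a median row at 0.45, and GRK6 was also nearest to P4HA2 (0.23). For LOXL2 the nearest was VLDLR (0.17), the lipoprotein receptor, and for VEGFA it was PAX6 (0.10). Among the 5 genes the closest pair was LOX and P4HA2 (0.29) and the farthest ANKRD37 and VEGFA (0.69).

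Other cell types could not be checked through their markers, since of 7 fibroblast, 7 leukocyte and 6 endothelial markers only the fibroblast gene FAP has an opposite row (61.2 CPM), and a low level or a 0 in a row of the gene's own name does not show that its RNA is absent. Of what the own-name rows do hold, the sum over the fibroblast markers ran from 34.5 to 667 CPM over the libraries and was highest in Parental FBS, at a mean of 421 CPM, carried by COL1A1 and COL3A1. The part of this in the Parental responses was not tested beyond leaving out Parental FBS replicate 2, which leaves LOXL2 at log2 -0.43, ANKRD37 at -0.90 and VEGFA at 0.45, all still called.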

How the data were processed

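Libraries were made from total RNA with a strand-keeping Illumina kit that depletes ribosomal RNA, per the labels' protocols. Demultiplexing with bcl2fastq and alignment with STAR to hg38 are recorded, per the submitters' processing notes, and how reads were counted is not given in the sources used here. The deposited files hold whole read counts for each gene name. Closing lines count reads on no gene (94.3% to 94.6% of those uniquely aligned) and ambiguous reads, and these lines stayed out of library sizes and tests.

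Most counts lie on the strand opposite to the expected genes, so a gene was read from the row across its exons. Of the rows, 56752 matched GENCODE 29, and 10143 had a source gene: at least 50 bases of opposite exon overlap and at least 80% of all such overlap. The tests used edgeR 4.0.16 in R 4.3.3 (robust quasi-likelihood F test, TMM, filterByExpr, 8 group means, 24 libraries), with Benjamini-Hochberg adjustment over the 12822 tested rows in each of 22 comparisons. All 5 genes passed the count filter. SEs are back-calculated from F and approximate.

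The text names the 5 genes throughout, and from each pathway list at most 6 genes called in the LPDS response of any line, by smallest adjusted p. Uncalled list genes are given for contrast. Like rows are the nearest 3 among rows of at least 10 CPM with a protein-coding source (prior count 2), of which 1 or 2 are printed. Genes, lists and rules were chosen with earlier results of these data known. The test was tried on simulated data for LPDS against FBS in SGCTRL. It found 67 of 100 changes of log2 1 and 96 of 100 changes of log2 2, with 4 false calls. Smaller changes were not simulated. Alternatives were DESeq2 1.42.0, other filters, scalings and spreads, leaving out libraries, a term for the ambiguous-count split, the replicate number as a block, and the leaked share as a covariate. The leaked share is that of counts on protein-coding rows with no exon of another gene on the opposite strand.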

Additional observations from a re-analysis of the deposited data

Results flagged for a closer look

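The LPDS response differed between lines, by the interaction test in edgeR, in 10 cases. For LOX the differences were log2 -0.44 (SG12 minus SGCTRL), -0.92 (SG12 minus Parental) and -0.68 (SG21 minus Parental). For P4HA2 they were -1.14 (SG12 minus SGCTRL), -1.2 (SG12 minus Parental) and -0.84 (SG12 minus SG21). For VEGFA they were -0.89 (SG12 minus SGCTRL), -1.09 (SG12 minus Parental) and -0.63 (SG12 minus SG21). For ANKRD37 the response differed by 0.81 (SG12 minus SG21). Of the 10, 9 involve SG12. Without SG12 FBS replicate 3, which stands apart, the SG12 minus SGCTRL differences were -0.57 for LOX, -1.23 for P4HA2 and -0.96 for VEGFA. The LOX difference of SG12 from SGCTRL was lost with the leaked share as a covariate (-0.29) or without a count filter (-0.44).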

How the results depend on the processing

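Of the 20 LPDS responses, 14 kept their side of the threshold under every alternative, among them all 4 of ANKRD37 and those of LOX and P4HA2 in both knockout lines. P4HA2 in SGCTRL was not called with no count filter (log2 -0.39), with at least 1 CPM in 3 libraries (-0.40) or without robust estimation (-0.41, chosen after seeing the data), and ran from -0.48 to -0.34 with 1 library left out. LOXL2 in SG12 was not called with all uniquely aligned reads as library size (-0.29), with at least 1 CPM in 3 libraries (-0.30) or with no count filter (-0.29), and ran from -0.46 to -0.30 with 1 library left out. With the leaked share as a covariate LOXL2 (-0.39) and VEGFA (0.45) in Parental cells were not called. P4HA2 in Parental cells was called with DESeq2 size factors (-0.39), in DESeq2 (-0.39) and with the leaked share (-0.64), and ran from -0.49 to -0.25 with 1 library left out. VEGFA in SGCTRL was called with the spread of the compared groups alone (0.27). Among results called in the main fit or the alternative, directions turned in 3 cases, all between lines in FBS. LOX turned in SGCTRL against Parental cells with the leaked share (-0.059). LOXL2 turned with the split term in SG12 against SGCTRL (0.015) and in SGCTRL against Parental cells (-0.0041). In 44 further cases over all comparisons the sign changed with no call in either fit.

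Differences gained in FBS were LOX in SG12 against SG21 (0.25 in DESeq2), LOXL2 in SG21 against Parental cells (-0.33 in DESeq2) and P4HA2 in SG21 against SGCTRL (-0.33 in DESeq2). Of the 5 genes, the number called moved as follows. With the split term it was 0 for SG12 against SGCTRL in FBS and in LPDS, 0 for SG21 against SGCTRL in FBS, 0 for SGCTRL against Parental cells in LPDS, 0 for the response of SG21 minus Parental, and 1 each for SG21 against Parental cells in LPDS and SGCTRL against Parental cells in FBS. With the leaked share it was 0 for SG12 against SGCTRL in LPDS, SGCTRL against Parental cells in LPDS and the response of SG21 minus Parental, and 1 each for SG21 and SGCTRL against Parental cells in FBS. With the spread of the compared groups alone it was 0 for the response of SG21 minus Parental, 1 for SG21 against Parental cells in FBS, 4 for SG21 against SGCTRL in FBS and 2 for SGCTRL against Parental cells in LPDS. With no count filter it was 1 each for SG12 against SGCTRL and against Parental cells in LPDS. With SG21 LPDS replicate 1 as its only library (chosen after seeing the data), it was 1 for SG21 against Parental cells in LPDS and 0 for the response of SG21 minus Parental. DESeq2 called 2 for SGCTRL against Parental cells in LPDS. With 1 library left out the number ran from 1 to 2 for the response of SG21 minus Parental, from 1 to 1 for SG12 against Parental cells in LPDS, from 1 to 2 for SG12 against SG21 in LPDS, from 0 to 2 for SG12 against SGCTRL in LPDS, from 1 to 3 for SG21 against Parental cells in FBS, from 1 to 2 in LPDS, from 2 to 4 for SGCTRL against Parental cells in FBS and from 0 to 1 in LPDS.

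In the median the replicate numbers showed no pairing of the samples. Same-numbered samples of different groups had a median correlation of deviations of 0.00353 over 84 pairs, 9 of them over 0.1. Differently numbered samples had a median of -0.00179 over 168 pairs, 8 of them over 0.1, so pairs over 0.1 were more frequent among same-numbered samples. With the replicate number as a block, 2 genes were called for SGCTRL against Parental cells in LPDS (VEGFA at log2 0.35 was added), and no other call of the 5 genes changed. Over all rows the number called in the LPDS response was 583 in Parental cells (159 to 864 with 1 library left out, 92 to 700 under the other alternatives), 299 in SGCTRL (152 to 201 and 267 to 793), 2882 in SG12 (2058 to 3125 and 2372 to 3026) and 491 in SG21 (221 to 846 and 89 to 637). With a term for the ambiguous-count split, which the SG21 response crosses, the SG21 number was 91, and the calls of the 5 genes in SG21 did not change. The cause of these changes was not tested. Depth limited the reading of low rows, and differences between lines that did not pass are not shown to be absent.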
